A study of Homo sapiens with 12 samples.

Results

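The genes described here encode CDK4 and CDK6, the D-type cyclins that activate these kinases, and the inhibitors that restrain them. The members were set as a list of 10 genes, *CDK4*, *CDK6*, *CCND1*, *CCND2*, *CCND3*, *CDKN1A*, *CDKN1B*, *CDKN1C*, *CDKN2B* and *CDKN2C*, and all 10 were found among the 23705 genes of the count table. *CDK6* was chosen by its lower level with RGZ in these same libraries, so its values for RGZ against vehicle are given as a description without a test, and so are those of every comparison that shares the vehicle or the RGZ libraries. Of the 10 members, 8 had enough counts to be tested. *CDKN2B* and *CCND2* did not pass this filter.

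RNA was sequenced from A375 cells, an established line from a human metastatic melanoma that carries a BRAF mutation. All cells were exposed for 24 h. The vehicle group received the solvent DMSO, the RGZ group 5 μM of rosiglitazone (RGZ), the T0070907 group 2 μM of T0070907, and the combination group 5 μM of RGZ with 2 μM of T0070907. RGZ activates the nuclear receptor PPARγ and T0070907 is an antagonist of the same receptor, so the combination was used to separate effects of RGZ through the receptor from other effects of the compound. The experiment was done 3 times independently, with 1 library per group each time, for which RNA from technical replicates had been mixed. A single cell line was used, so the replicates are repeated cultures and not different donors.

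D-type cyclins bind CDK4 or CDK6 in the G1 phase of the cell cycle. The active kinases phosphorylate the retinoblastoma protein, which then releases E2F factors that drive the genes of DNA synthesis. Inhibitors of the INK4 family, here *CDKN2B* and *CDKN2C*, bind the kinases themselves, while those of the CIP/KIP family, *CDKN1A*, *CDKN1B* and *CDKN1C*, bind complexes of cyclin and kinase. The pathway is often altered in melanoma, and CDK4 and CDK6 are targets of drugs used in cancer.

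The promoters of both kinase genes are shown because *CDK6* is the member that the list was built around and *CDK4* is the other kinase of the D cyclins. The 250 bases before the RefSeq start of each gene (GRCh38.p14) are given 5′ to 3′ on the strand of the gene, with matches to the GC box GGGCGG on either strand in capitals. The *CDK6* window lies at chr7:92836574-92836823 and the *CDK4* window at chr12:57752311-57752560, both on the minus strand.
CDK6: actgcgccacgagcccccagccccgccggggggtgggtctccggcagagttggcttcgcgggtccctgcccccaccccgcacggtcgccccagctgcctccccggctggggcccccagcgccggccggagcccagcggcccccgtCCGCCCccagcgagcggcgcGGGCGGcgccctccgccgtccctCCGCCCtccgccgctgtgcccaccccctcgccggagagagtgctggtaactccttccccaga
CDK4: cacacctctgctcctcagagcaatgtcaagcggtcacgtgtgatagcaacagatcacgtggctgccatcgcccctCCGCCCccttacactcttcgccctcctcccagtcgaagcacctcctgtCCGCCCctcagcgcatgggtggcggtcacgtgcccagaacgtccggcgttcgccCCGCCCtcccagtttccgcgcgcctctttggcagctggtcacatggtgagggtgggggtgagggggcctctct
For *CDK6* the window of the start farthest upstream is shown. Both windows shown held 3 GC boxes, the nearest 56 bases before the start of *CDK6* and 67 bases before that of *CDK4*, and the window of the other RefSeq start of *CDK6* held 0. Over all 35116 RefSeq promoter windows, the GC box was present in 42.6% within the same 250 bases before the start. The nuclear receptor core motif AGGTCA was searched on both strands as well. It had 0 matches in the windows of *CDK4*, *CDK6*, *CCND3*, *CDKN1A*, *CDKN1B*, *CDKN2B* and *CDKN2C*, and was present in 12.1% of all windows. A match or its absence describes only the letters in these windows.

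The libraries held between 8319455 and 11375227 counts, and a gene with 3 counts, taken as the detection floor, stood at 0.258 to 0.371 CPM, a gene's count divided by the scaled library total. Levels below are CPM scaled by edgeR's TMM method, and all tests were made over 13522 genes with a threshold of 0.05 for the Benjamini-Hochberg adjusted p of edgeR's quasi-likelihood test. Libraries of the same experiment deviated together, so a second fit of each test had a term for the experiment, the replicate block. The libraries of the combination in experiments 1 and 2 stood farthest from an additive pattern of condition and experiment, with a median distance over genes of 0.098 and 0.0887 on the log2 scale against 0.0475 to 0.0702 in the other 10. Among markers of melanoma cells, *SOX10*, *MITF*, *S100B* and *S100A1* were above the floor in all 12 libraries, while the pigment genes were not. Of these, *TYR* had 0 counts, *DCT* 0 to 1, *MLANA* 0 to 6, *TYRP1* 0 to 13 and *PMEL* 3 to 13. The summed level of 9 melanoma markers was 291 to 532 CPM in vehicle libraries, 239 to 458 in RGZ libraries, 339 to 574 in T0070907 libraries and 300 to 527 in combination libraries. Between vehicle and RGZ libraries, the summed fibroblast markers were at 24.0 to 53.4 CPM and 16.1 to 34.8 CPM, and the endothelial ones at 5.59 to 8.35 CPM and 2.91 to 5.79 CPM. The epithelial markers were at 54.2 to 131 CPM and 45.6 to 100 CPM, and the leukocyte ones at 6.54 to 12.5 CPM and 6.62 to 17.5 CPM. T0070907 libraries were at 29.5 to 58.4, 5.31 to 10.2, 62.3 to 140 and 4.39 to 9.13 CPM for fibroblast, endothelial, epithelial and leukocyte markers, and combination libraries at 19.1 to 43.0, 4.08 to 6.97, 61.6 to 136 and 4.94 to 14.7 CPM. The ranges of vehicle and RGZ overlapped for each list. In all libraries 3 of 5 fibroblast, 2 of 5 epithelial, 2 of 5 leukocyte and 1 of 4 endothelial markers were above the floor. The part of these markers in the results was not tested. All libraries came from a single cell line, so other cell types were not part of the design. In such bulk samples, fewer cells in a given state and less RNA per cell cannot be told apart.

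*CDK6* was lower with RGZ than with vehicle in each of the 3 experiments. In experiments 1, 2 and 3 its level was 253, 200 and 242 CPM with vehicle and 177, 144 and 171 CPM with RGZ. The 3 RGZ libraries all lay below the 3 vehicle libraries. The difference was -0.50 on the log2 scale (SE 0.10, n = 3), a level 1.41-fold lower, and the SE was 0.057 with the replicate block. Within experiments the differences were -0.52, -0.47 and -0.50, a narrow range beside the differences between the experiments themselves. With T0070907 alone *CDK6* was at 239, 202 and 231 CPM, which overlapped the vehicle libraries, and the log2 difference from vehicle was -0.047 (SE 0.10, n = 3). With both compounds it was at 192, 183 and 197 CPM. These 3 libraries lay between those with vehicle and those with RGZ and overlapped neither, at a log2 difference of -0.28 from vehicle and +0.22 from RGZ alone (SE 0.10 each). The latter ranged from 0.13 to 0.27 when 1 library was left out.

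The combination against T0070907 alone measures the effect of RGZ with the antagonist present, and it shares no library with the comparison on which *CDK6* was chosen. The spread in its test was still estimated from all 12 libraries, which include the vehicle and RGZ libraries. *CDK6* was at 192, 183 and 197 CPM with the combination against 239, 202 and 231 CPM with T0070907, and the groups did not overlap. The log2 difference was -0.23 (SE 0.10, n = 3), with differences of -0.32, -0.14 and -0.24 in experiments 1, 2 and 3. This did not pass edgeR's test without the block (adjusted p = 0.313), whereas with the replicate block *CDK6* was lower at an adjusted p of 0.0218 (95% interval -0.35 to -0.11). The adjusted p with the block was 0.153 without experiment 1, 0.00437 without experiment 2 and 0.24 without experiment 3. The log2 differences in these fits were -0.19, -0.28 and -0.23. The genes called over the whole table ranged from 18 to 2206 in the same fits, and the adjusted p depends on all genes. Of the 8 tested members, 0 were called without the block by edgeR, DESeq2 or limma-voom, and 1 had an unadjusted p under 0.05, as did 2028 of the 13522 genes. An edgeR model of only the groups compared, without the block, also called 0 members. The background was 0.0370% of all genes without the block and 8.76% with it (4.55% higher, 4.22% lower), beside 1 of 8 members, *CDK6*. The difference of the RGZ effect with and without the antagonist was +0.26 for *CDK6* on the log2 scale (SE 0.14), with +0.20, +0.33 and +0.26 in the 3 experiments, given without a test.

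*CDK4*, the other kinase that D cyclins activate, kept its level with RGZ close to that with vehicle. Vehicle libraries were at 470, 468 and 458 CPM and RGZ libraries at 479, 453 and 459 CPM in experiments 1, 2 and 3. The groups overlapped, and the log2 difference was -0.0064 (SE 0.07, n = 3; 95% interval -0.16 to 0.15; edgeR adjusted p = 0.989). The level was 498, 468 and 487 CPM with T0070907 and 579, 474 and 520 CPM with the combination. All 3 combination libraries were above the 3 vehicle libraries, by +0.30, +0.018 and +0.18 within the experiments, so that experiment 2 added little to the difference. The log2 difference was +0.17 (SE 0.07), which missed the threshold (adjusted p = 0.453, or 0.117 with the block) and ranged from 0.095 to 0.24 when 1 library was left out. Against RGZ alone the combination was higher by 0.18 (SE 0.07), which passed edgeR's test only with the block (adjusted p = 0.0472, against 0.305 without) and missed the threshold in DESeq2 with the block (0.0663). With the block and without experiments 1, 2 and 3 in turn this adjusted p was 0.334, 0.014 and 0.344. Without the block and without the combination library of experiment 1 the log2 difference was 0.10.

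The ratio of *CDK6* to *CDK4* CPM joins both kinases in a single value per library, with no test since *CDK6* is part of it. It was 0.538, 0.427 and 0.527 with vehicle and 0.369, 0.319 and 0.372 with RGZ. T0070907 libraries had ratios of 0.48, 0.431 and 0.475, and combination libraries of 0.331, 0.386 and 0.378. The combination libraries overlapped those of RGZ, unlike the *CDK6* level alone, and *CDK4* had its highest mean there.

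**Figure D1:**
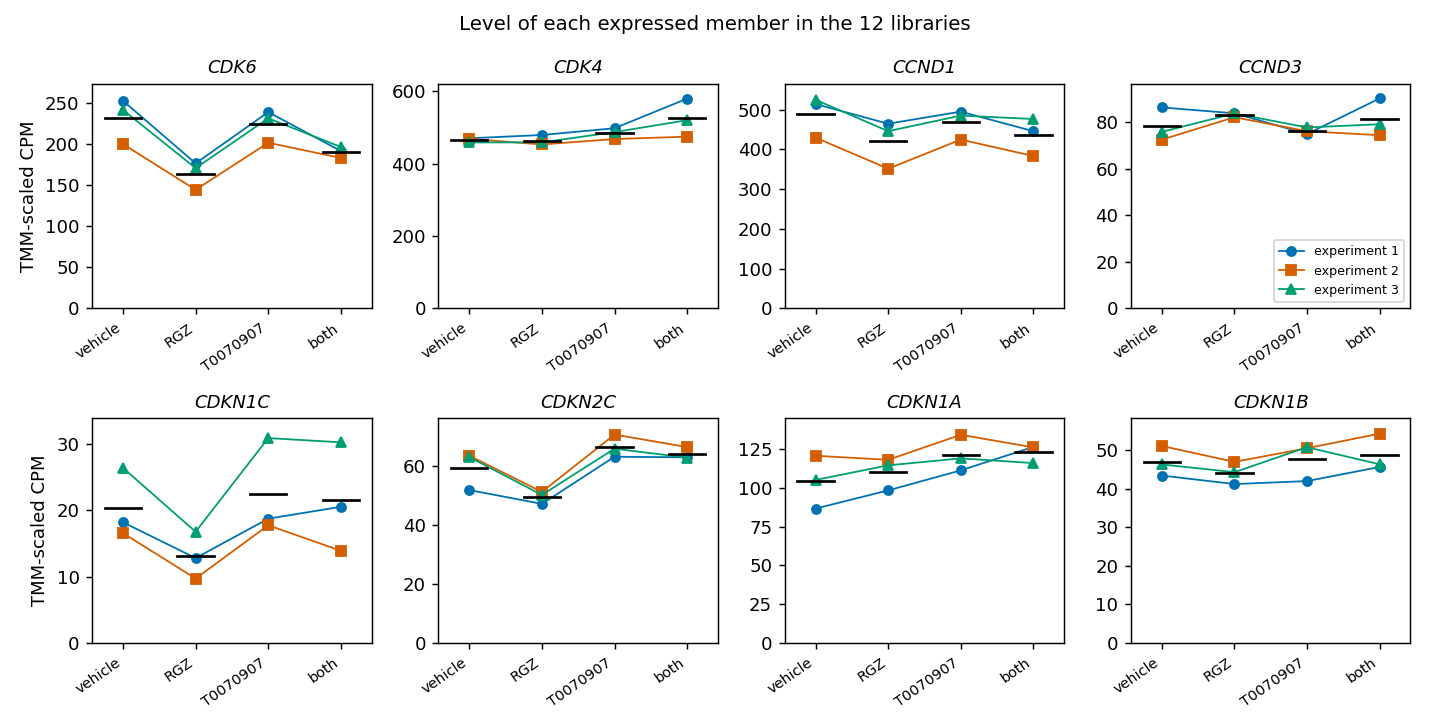
TMM-scaled CPM (vertical axes, each from 0) of the 8 members with enough counts in vehicle, RGZ, T0070907 and both compounds. Each marker is a library, lines join the libraries of an experiment and black bars are means of 3 libraries. *CDK6*, *CCND1*, *CDKN1B*, *CDKN1C* and *CDKN2C* were lower with RGZ than with vehicle in each experiment, *CDK6* at 144 to 177 CPM against 200 to 253 CPM with vehicle.

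Among the D cyclins, *CCND1* and *CCND3* were expressed and *CCND2* was not detected above the floor. *CCND1*, the D cyclin with the most counts here, was at 514, 430 and 525 CPM with vehicle and 465, 352 and 446 CPM with RGZ. The groups overlapped because experiment 2 was low in every condition, although RGZ was lower in each experiment, by 0.15, 0.29 and 0.24 on the log2 scale. The log2 difference of -0.22 (SE 0.12, n = 3) passed with the block (adjusted p = 0.0111) but not in the fit that ignores the experiment (0.574). The adjusted p with the block was 0.0113, 0.0641 and 0.236 without experiments 1, 2 and 3 in turn. Without the block and without the RGZ library of experiment 2 the log2 difference was -0.10. *CCND1* was at 495, 425 and 485 CPM with T0070907 and at 446, 383 and 477 CPM with the combination. The combination was lower than vehicle in all 3 experiments at a log2 difference of -0.17 (SE 0.12; adjusted p = 0.62 without and 0.109 with the block), and it differed from T0070907 by -0.11 (SE 0.12; adjusted p = 0.737 and 0.194). Leaving out 1 library moved these differences to between -0.25 and -0.086 and to between -0.18 and -0.022.

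*CCND3*, a D cyclin present at a lower level, was at 86.4, 72.6 and 75.9 CPM with vehicle and at 83.9, 82.2 and 83.8 CPM with RGZ. It was at 75.0, 76.2 and 77.8 CPM with T0070907 and at 90.3, 74.5 and 79.2 CPM with the combination. The groups overlapped in every comparison and no direction was shared by all 3 experiments except for the combination against vehicle. Its log2 difference for RGZ was +0.089 (SE 0.082; 95% interval -0.09 to 0.27; adjusted p = 0.755 without and 0.48 with the block). *CCND2* had 2 counts in the T0070907 library of experiment 2 and 0 counts in the other 11 libraries, below the floor of 3 counts in each.

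*CDKN1C*, a CIP/KIP inhibitor, showed the largest log2 difference with RGZ among the tested members. It was at 18.2, 16.5 and 26.4 CPM with vehicle and at 12.8, 9.7 and 16.7 CPM with RGZ. The groups overlapped because experiment 3 was high throughout, yet RGZ was lower within each experiment, by 0.50, 0.76 and 0.65 on the log2 scale. The log2 difference was -0.63 (SE 0.32, n = 3; adjusted p = 0.518) without the block and -0.64 (SE 0.11; adjusted p = 0.000901) with it, a level 1.56-fold lower. Leaving out experiment 3 raised the adjusted p with the block to 0.0676, while it was 0.00121 and 0.00318 without experiments 1 and 2. Without the block, the log2 difference was -0.40 when the vehicle library of experiment 3 was left out. With T0070907 it was at 18.7, 17.7 and 30.8 CPM and with the combination at 20.5, 13.9 and 30.2 CPM. Those libraries overlapped the vehicle libraries. Against RGZ alone the combination was higher by 0.70 on the log2 scale with the block (SE 0.11; adjusted p = 0.000322), by 0.67, 0.51 and 0.84 in the experiments. Without the block this difference did not pass (adjusted p = 0.361) and was 0.39 when the combination library of experiment 3 was left out, and with the block it did not pass without experiment 3 (adjusted p = 0.0681). With the antagonist present RGZ had no shared direction in *CDKN1C*, at +0.13, -0.35 and -0.029 in experiments 1, 2 and 3. The log2 difference was -0.062 without the block (SE 0.31; adjusted p = 0.956) and -0.075 with it (95% interval -0.29 to 0.14; adjusted p = 0.67). The difference of the RGZ effect with and without the antagonist was +0.56 with the block (SE 0.15) and missed the threshold over all genes (edgeR adjusted p = 0.16).

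*CDKN2C*, an INK4 inhibitor, was also lower with RGZ. Its level was 51.9, 63.5 and 63.1 CPM with vehicle and 47.2, 51.3 and 50.2 CPM with RGZ, with all RGZ libraries below all vehicle libraries. The log2 difference of -0.26 (SE 0.085, n = 3) was -0.14, -0.31 and -0.33 within the experiments. The difference passed edgeR's test with the block (adjusted p = 0.0225) and missed the threshold without it (0.232), and it also missed it in DESeq2 with the block (0.0651). With the block the adjusted p was 0.0171, 0.133 and 0.33 without experiments 1, 2 and 3 in turn. With T0070907 it was at 63.2, 70.7 and 65.9 CPM, and with the combination at 63.0, 66.5 and 62.9 CPM. All 3 combination libraries lay above all RGZ libraries, at a log2 difference of +0.37 (SE 0.084; adjusted p = 0.0613, or 0.00145 with the block). With the block this difference passed without each experiment in turn, at adjusted p of 0.0083, 0.00715 and 0.0464. DESeq2 called it also without the block. Against T0070907 the combination differed by -0.055 (SE 0.083; 95% interval -0.24 to 0.13; adjusted p = 0.813 without and 0.632 with the block).

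*CDKN1A*, a CIP/KIP inhibitor and a target of p53, overlapped between RGZ and vehicle. It was at 86.6, 121 and 105 CPM with vehicle and at 98.3, 118 and 114 CPM with RGZ (log2 difference +0.083, SE 0.12, n = 3; adjusted p = 0.853 without and 0.543 with the block). It was at 111, 134 and 119 CPM with T0070907 and at 126, 126 and 116 CPM with the combination. Both groups were above vehicle in each experiment, T0070907 by 0.36, 0.15 and 0.18 and the combination by 0.54, 0.064 and 0.14 on the log2 scale. The log2 difference was +0.22 for T0070907 (SE 0.12; adjusted p = 1 without and 0.241 with the block) and +0.24 for the combination (SE 0.12; adjusted p = 0.485 and 0.107). Neither passed the threshold, and leaving out 1 library moved them to between 0.11 and 0.34 for T0070907 and between 0.12 and 0.36 for the combination.

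*CDKN1B*, the third CIP/KIP inhibitor, did not pass in any comparison. Its libraries were at 43.5, 51.2 and 46.4 CPM with vehicle and 41.3, 47.0 and 44.4 CPM with RGZ (log2 difference -0.088, SE 0.10; 95% interval -0.31 to 0.13; adjusted p = 0.817). They were at 42.0, 50.6 and 50.8 CPM with T0070907 and 45.7, 54.4 and 46.4 CPM with the combination. *CDKN2B*, the other INK4 inhibitor on the list, had 0 counts in all 12 libraries, which allows up to 0.371 CPM in the library with the highest floor. The floors cover counting error only.

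For RGZ against vehicle, 0 of the 7 tested members other than *CDK6* were called by edgeR without the block, against a background of 1.24% of all genes. At an unadjusted p under 0.05 there was 1, *CDKN2C*, beside 1421 of 13522 genes, and DESeq2 and limma-voom without the block called 0. With the block 3 of 7 were called and all 3 were lower, *CCND1*, *CDKN1C* and *CDKN2C*, against a background of 9.30% (4.35% lower and 4.95% higher). The median log2 difference of the 7 was -0.088, and that of all tested genes was -0.0095. For the combination against RGZ, 0 of 7 were called without the block by edgeR (background 1.24%) and by limma-voom, 1 by DESeq2, and 3 had an unadjusted p under 0.05, beside 1773 of 13522 genes. With the block 3 of 7 were called and all were higher, *CDK4*, *CDKN1C* and *CDKN2C*, against 11.4% of all genes (5.55% higher and 5.88% lower). The combination and the vehicle group are each compared with the same RGZ libraries, so a low RGZ library enters both comparisons.

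For T0070907 against vehicle, edgeR called 0 of 7 members without the block (background 0.00740%) and 0 with it (0.910%). At an unadjusted p under 0.05 there were 0 without and 2 with the block, *CDKN1A* and *CDKN2C*, both higher, beside 419 and 1328 of 13522 genes, and DESeq2 and limma-voom called 0 in either form. For the combination against vehicle 0 of 7 were called in either fit (background 0% of all genes in both), with 1 and 3 at an unadjusted p under 0.05, beside 1438 and 2868 of 13522 genes, and 0 by DESeq2 and limma-voom in either form. With the block and without experiment 2, however, 3 members were called, *CDK4* higher (adjusted p = 0.00798), *CDKN1A* higher (0.00703) and *CCND1* lower (0.0448), and the genes called over the whole table went from 0 to 2641. For the interaction of RGZ and T0070907, 0 of 7 were called in either fit (background 0% without the block and 0.281% with it) and by DESeq2 and limma-voom, with 0 and 2 members at an unadjusted p under 0.05, beside 406 and 1324 of 13522 genes.

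**Figure D2:**
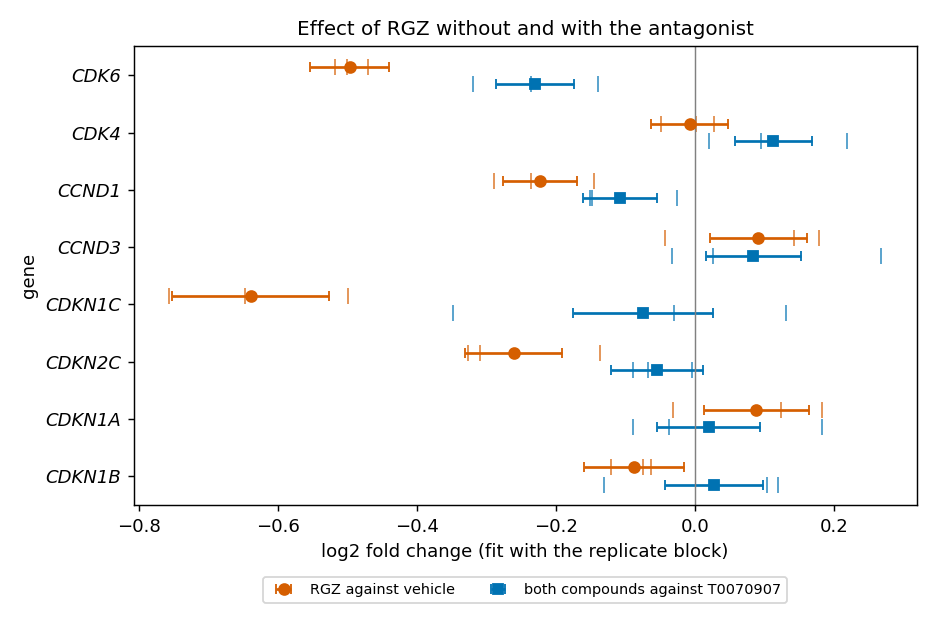
Log2 fold change for RGZ against vehicle (circles) and for both compounds against T0070907 (squares) in the fit with the replicate block. Bars are the SE and vertical ticks the differences within each of the 3 experiments. *CDK6* stood at -0.50 without and -0.23 with the antagonist, and *CDKN1C* at -0.64 and -0.075.

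Levels of different genes were compared per kilobase of the longest annotated transcript, since a longer transcript collects more counts. In vehicle libraries *CDK4* had the highest level, 224 CPM per kb ± 3.03 (SD, n = 3), followed by *CCND1* at 114 ± 12.1, *CDKN1A* at 45.9 ± 7.51 and *CCND3* at 32.7 ± 3.02. These neighbours did not overlap. *CDKN2C* at 20.5 ± 2.27 overlapped *CDK6* at 19.9 ± 2.39, which overlapped *CDKN1B* at 17.7 ± 1.46 CPM per kb. *CDKN1C* was the lowest at 10.5 ± 2.72 and did not overlap *CDKN1B*. The *CDK4* level was at or above that of 98.5% of the 13305 tested genes with a length, and the *CDK6* level at or above that of 72.8%. The place of *CDK6* depended on its long transcript of 11612 bases, of which 978 are coding. Per kilobase of coding sequence *CDK6* was at 237 ± 28.4 CPM and moved from rank 6 to rank 3, behind *CCND1* at 553 ± 59.0 and *CDK4* at 512 ± 6.92. On this scale *CCND1* and *CDK4* overlapped, and *CDK6* overlapped *CDKN1A* at 212 ± 34.6.

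Members differed in how their spread over the 12 libraries divided between condition and experiment. Condition took 80.1% of the spread of log2 CPM in *CDKN2C*, 75.7% in *CDK6* and 53.8% in *CDK4*. *CDK6* was chosen by its lower level with RGZ in these libraries, so its share follows in part from that choice. Experiment took the larger part in *CDKN1B* (66.7%), *CCND1* (65.7%) and *CDKN1C* (54.7%), where condition took 19.7%, 29.1% and 41.4%. *CDKN1A* had 38.5% and 38.7%, and *CCND3* 27.1% and 34.7%. The medians over all tested genes were 34.4% for condition and 27.7% for experiment.

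**Figure D3:**
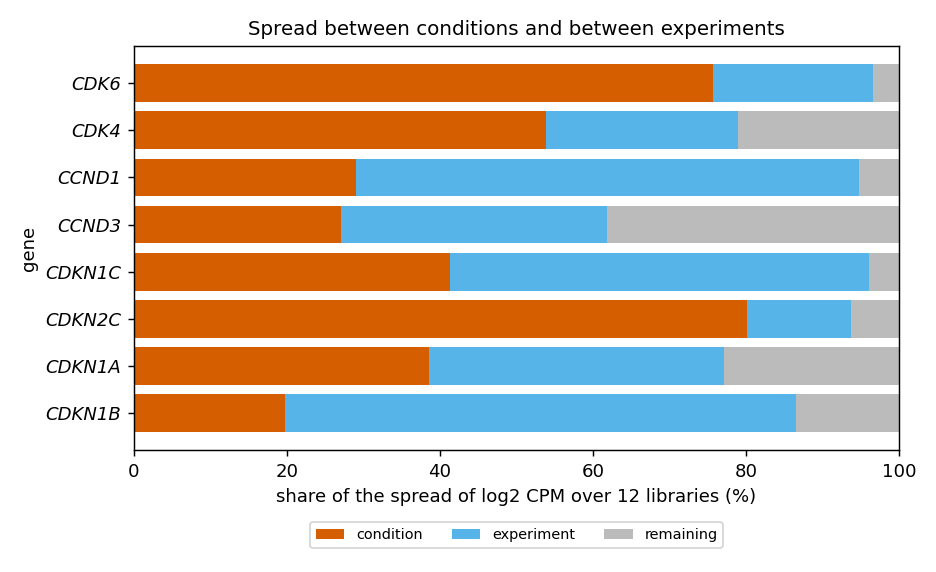
Share of the spread of log2 CPM over 12 libraries (horizontal axis, percent) that lay between conditions, between experiments and in the remainder, for the 8 tested members. *CDK6* and *CDKN2C* had 75.7% and 80.1% between conditions, and *CCND1* and *CDKN1B* 65.7% and 66.7% between experiments. *CDK6* was chosen by its lower level with RGZ in these libraries.

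The genes whose pattern was most like that of *CDK6* were found by the root mean square difference of log2 CPM over the 12 libraries, with each gene centred within each experiment. *KLHL5*, a Kelch-like gene, was nearest at 0.0569, followed by *TLE4*, a transcriptional corepressor, at 0.0578. *COL5A2*, which encodes a chain of type V collagen, was at 0.0678, the uncharacterised *LOC730101* at 0.0685 and *SORT1*, a sorting receptor, at 0.0741. The median over 13217 genes was 0.242. Centred on the mean of the 4 conditions, the mean log2 level of *CDK6* was +0.20 in vehicle, -0.29 in RGZ, +0.16 in T0070907 and -0.071 in combination libraries, and that of *KLHL5* +0.15, -0.33, +0.19 and -0.017. Of the other members, *CCND1* was at rank 319 (0.124), *CDKN2C* at rank 1180 (0.157) and *CDKN1C* at rank 4359 (0.212). All these genes were measured in the same libraries, and the likeness is a description.

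Further genes of the pathway were taken from 7 lists with 108 genes in all, each of which was tested. For RGZ against vehicle, edgeR called 3 of the 108, or 9 with the block, and all of them were higher. The 9 of 108 stood beside the background of 9.30% of all genes. The medians of the log2 differences were -0.0054 over the lists and -0.0095 over all genes. The called genes lay mostly among regulators of *CCND1*, *CDKN1A* and *CDKN2B* transcription, of which 5 of 16 were called with the block. *KLF4*, a transcription factor of the Krüppel-like family, was at 17.1, 16.8 and 18.5 CPM with vehicle and 43.8, 50.0 and 47.8 CPM with RGZ, a log2 difference of +1.43 (SE 0.16; adjusted p = 0.00122). *MYC*, a transcription factor that promotes growth, was at 21.1, 18.8 and 18.1 CPM with vehicle and 36.0, 36.2 and 29.5 CPM with RGZ (+0.81, SE 0.11; adjusted p = 0.00461). *JUN*, an AP-1 subunit, was at 52.8, 57.2 and 33.7 CPM and 97.3, 105 and 81.5 CPM. Its RGZ and vehicle libraries did not overlap, and edgeR called it only with the block (+1.00, SE 0.12; adjusted p = 1.96e-05, against 0.0944 without). *TCF7L2*, a factor of the WNT pathway, was called by edgeR only with the block too (+0.42, SE 0.067; adjusted p = 0.000367). DESeq2 called 4 of these 16 regulators without the block, where edgeR and limma-voom called 2.

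Of the p53 target genes 1 of 20 was called for RGZ, *PHLDA3*, which restrains AKT signalling. It was at 74.3, 80.6 and 80.4 CPM with vehicle and 146, 171 and 148 CPM with RGZ (+0.98, SE 0.099; adjusted p = 0.000505), while the median of the list was -0.085. Of the 13 RB proteins and E2F factors 1 was called, with the block only. This was *E2F1*, at 88.8, 80.2 and 93.4 CPM with vehicle and 111, 94.2 and 128 CPM with RGZ (+0.34, SE 0.076; adjusted p = 0.00671, against 0.435 without). *PIM1*, a kinase that acts on CDK inhibitors, was called with the block among 15 genes for turnover and folding of the proteins of the pathway (+0.41, SE 0.11; adjusted p = 0.0177), and *CDK17* among 14 other cyclin-dependent kinases (+0.27, SE 0.08; adjusted p = 0.0412). None of the 18 E2F target genes of DNA synthesis and none of the 12 cyclins and kinases of later G1 and S phase were called by edgeR for RGZ in either fit, nor by DESeq2 or limma-voom in either form. At an unadjusted p under 0.05 each of these lists had 0 genes without and 1 with the block, beside 1421 and 2982 of 13522 genes. The background was 1.24% of all genes without and 9.30% with the block, so a count of 0 is near the background for lists of this size.

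With the antagonist added to RGZ, 4 of 108 listed genes were lower than with RGZ alone without the block, beside 1.24% of all genes. *KLF4* was at 12.5, 19.9 and 22.1 CPM with the combination (-1.37, SE 0.16; adjusted p = 0.00222) and *MYC* at 21.5, 18.9 and 23.0 CPM (-0.68, SE 0.11; adjusted p = 0.0119). *JUN* was at 44.7, 42.0 and 39.1 CPM (-1.17, SE 0.25; adjusted p = 0.0444) and *PHLDA3* at 104, 81.7 and 106 CPM (-0.67, SE 0.097; adjusted p = 0.00739). In all 4 genes the combination libraries lay below the RGZ libraries. The genes were named because this comparison called them, so this adds no separate support. With the block 17 of 108 listed genes were called, 11 lower and 6 higher, beside 11.4% of all genes. The lower ones included *PIM1* (-0.51, SE 0.11; adjusted p = 0.00388), *TCF7L2* (-0.46, SE 0.067; 0.000154), *CDK17* (-0.34, SE 0.08; 0.00883) and *E2F1* (-0.26, SE 0.075; 0.0295), each of which was called as higher for RGZ against vehicle in the same fit. These comparisons share the RGZ libraries. *CDK18*, another cyclin-dependent kinase, was higher (+0.45, SE 0.14; 0.0393). The higher ones also included the p53 target genes *BBC3* (+0.59, SE 0.16; adjusted p = 0.0206), which promotes apoptosis, *FDXR* (+0.46, SE 0.12; 0.0166) and *DDB2*, which acts in DNA repair (+0.26, SE 0.069; 0.0194). Of the E2F target genes *TK1*, a thymidine kinase, was higher (+0.25, SE 0.072; 0.0329) and *RRM2*, a subunit of ribonucleotide reductase, was lower (-0.17, SE 0.048; 0.0306).

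For T0070907 alone, *KLF4* was the single listed gene that edgeR called, with the block only, while DESeq2 with the block called 2 listed genes. It was at 9.59, 9.13 and 9.56 CPM, below all vehicle libraries (-0.90, SE 0.14; adjusted p = 0.00265, against 0.276 without). Without the block edgeR and limma-voom called 0 of 108 and DESeq2 1, with 3 at an unadjusted p under 0.05, beside 419 of 13522 genes. For the combination against vehicle 0 of 108 were called by edgeR and limma-voom in either form and by DESeq2, and 2 by DESeq2 with the block, while 8 had an unadjusted p under 0.05 in edgeR, or 24 with the block, beside 1438 and 2868 of 13522 genes. Without experiment 2 the fit with the block called 21 of 108, beside 2641 of 13522 genes over the whole table. For the combination against T0070907, edgeR called 9 with the block, 5 higher and 4 lower, beside 8.76% of all genes. Without the block edgeR and limma-voom called 0 and DESeq2 1, with 19 at an unadjusted p under 0.05, beside 2028 of 13522 genes. *KLF4* (+0.96, SE 0.14; adjusted p = 0.000608) and *PHLDA3* (+0.46, SE 0.09; 0.00639) were higher there as they were for RGZ without the antagonist, and so was *E2F1* (+0.27, SE 0.076; 0.0393). *PCNA*, the sliding clamp of DNA synthesis, and *CKS1B*, a CDK-binding protein, were higher by 0.23 (SE 0.055; 0.0218) and 0.33 (SE 0.095; 0.0418). *RBL1*, a relative of the retinoblastoma protein, *POLH*, *CDK19* and *CDK12* were lower by 0.43, 0.28, 0.46 and 0.26 (adjusted p = 0.0442, 0.0473, 0.0379 and 0.0494). For the interaction 0 of 108 were called by edgeR, DESeq2 and limma-voom in either form, with 3 at an unadjusted p under 0.05 in edgeR and 15 with the block, beside 406 and 1324 of 13522 genes, so that a difference of the RGZ effect with and without the antagonist was not shown for a listed gene.

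**Figure D4:**
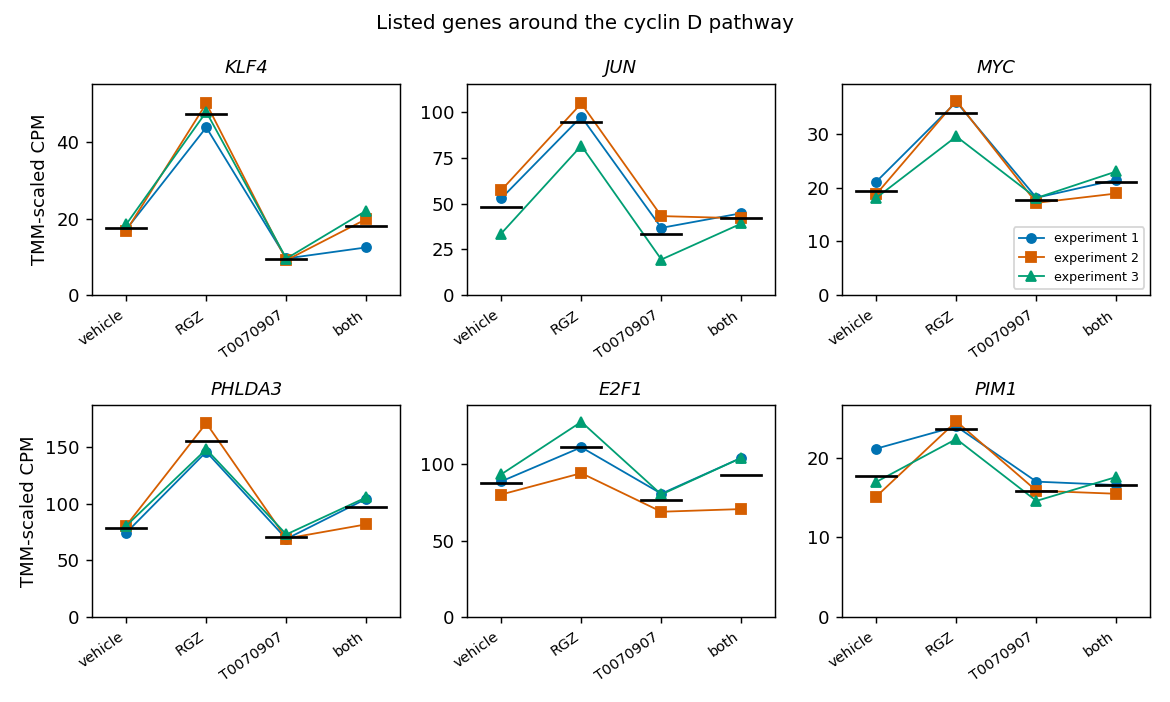
TMM-scaled CPM (vertical axes, each from 0) of 6 listed genes that were called for RGZ, in the 4 conditions. Each marker is a library, lines join an experiment and black bars are means of 3 libraries. *KLF4* was at 43.8 to 50.0 CPM with RGZ and at 9.13 to 22.1 CPM in the other 9 libraries.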

How the data were processed

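RNA of A375 cells from 4 conditions and 3 independent experiments was sequenced in 12 libraries (Illumina TruSeq). The authors deposited counts per gene for NCBI gene numbers without normalization. Hg19 is named in the submitters' processing notes. The aligner, the annotation and the use of strand are not given in the sources used here. No column (0) belonged to other samples, and symbols were found for 23538 of 23705 gene numbers. Without strand, reads of overlapping genes cannot be told apart.

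The main test was that of edgeR 4.0.16 in R 4.3.3 (TMM, filterByExpr, quasi-likelihood test, contrasts of 4 groups in 1 model of 12 libraries). Genes with a Benjamini-Hochberg adjusted p under 0.05 over 13522 genes were called. The SE is the size of the log2 difference divided by the square root of F, and is approximate. Differences within experiments were taken from log2 CPM. The experiment numbers come from the labels. Same-numbered libraries correlated in their deviations from the group means (mean 0.554, 17 of 18 pairs over 0.1). Alternatives were the replicate block, DESeq2 1.42.0, its size factors, limma-voom (limma 3.58.1), no filter on low counts, a minimum of 10 counts in every library, an adjusted p of 0.01, only the groups compared, and each library left out. DESeq2 and limma-voom with the block and the block without each experiment were added after seeing the data. The edgeR, DESeq2 and limma-voom tests were run on simulated counts with planted changes larger than any member difference here. Their performance at the sizes of the members was not tested. Promoter windows are RefSeq's on GRCh38.p14, which differs from the build of the counts, and transcript lengths are from GENCODE release 29. The p-values measure the spread between repeated cultures of the line.

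The members and lists were chosen with earlier results of these data known. Named were all members, of each list up to 4 called genes per comparison with the largest log2 difference, and the 5 genes most like *CDK6*, which had to reach a mean of 1 CPM.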

Additional observations from a re-analysis of the deposited data

How the results depend on the processing

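Which members passed the threshold depended mainly on the replicate block. For RGZ against vehicle, the combination against RGZ and the combination against T0070907, the members called went from 0 to 3, 3 and 1 with the block in edgeR and in limma-voom, and to 2, 2 and 1 in DESeq2 with the block. DESeq2 without the block called 1 member for the combination against RGZ. The log2 difference of *CDK6* between the combination and T0070907 was -0.23 with the block in edgeR, limma-voom and DESeq2 (adjusted p = 0.0218, 0.0238 and 0.0213), and from -0.30 to -0.19 when libraries or experiments were left out. Listed genes called for RGZ against vehicle were 9 with the block, 9 in limma-voom and 7 in DESeq2 with the block, and 5 in DESeq2. For T0070907 they were 1, 1, 2 and 1, for the combination against RGZ 17, 17, 15 and 6, and for the combination against T0070907 9, 6, 7 and 1. DESeq2 with the block called 2 for the combination against vehicle. For the combination against RGZ, 2 listed genes were called at an adjusted p of 0.01 and 2 in a model of only the groups compared. Over all genes the calls for RGZ against vehicle ranged from 45 to 1258 over the alternatives, with 167 without the block.

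Leaving out libraries, or experiments with the block, members called ranged from 0 to 3 for RGZ against vehicle, for the combination against vehicle and for the combination against RGZ, and from 0 to 1 for the combination against T0070907. Listed genes called ranged from 3 to 9, 0 to 21, 2 to 21 and 0 to 21 for these, and from 0 to 2 for T0070907. Of the 5 genes most like *CDK6*, 2 to 4 stayed without a library. The rank of *CDK6* per kb in vehicle was 3 by coding length.

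Among tested differences of the members, direction changed only for those that did not pass in the changed fit, none larger than 0.144 on the log2 scale in the reported fit. The untested *CDK6* difference between T0070907 and vehicle ranged from -0.14 to 0.023. The *CCND3* interaction was -0.0072 with the block, -0.0092 in limma-voom, -0.0039 without a filter, and -0.0072 and -0.0046 in limma-voom and DESeq2 with the block. When libraries or experiments were left out, the RGZ difference ranged from -0.031 to 0.017 in *CDK4* and -0.033 to 0.20 in *CDKN1A*. The T0070907 difference ranged from -0.15 to 0.0015 in *CCND1*, -0.089 to 0.052 in *CCND3*, -0.031 to 0.11 in *CDKN1B* and -0.16 to 0.37 in *CDKN1C*. The combination against vehicle ranged from -0.028 to 0.13 in *CCND3*, -0.029 to 0.12 in *CDKN1B* and -0.25 to 0.32 in *CDKN1C*, and against RGZ from -0.066 to 0.13 in *CCND1* and -0.12 to 0.023 in *CCND3*. Against T0070907 it ranged from -0.0034 to 0.15 in *CCND3*, -0.064 to 0.093 in *CDKN1A*, -0.056 to 0.11 in *CDKN1B* and -0.39 to 0.24 in *CDKN1C*. The interaction ranged from -0.0014 to 0.20 in *CCND1*, -0.16 to 0.0902 in *CCND3* and -0.19 to 0.048 in *CDKN1A*. The cause of these changes was not tested. With 3 libraries per group, the spread between experiments limits the fits without the block.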
